A study of Mus musculus with 13 samples.

Results

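The immediate early AP-1 and Egr factors are described here as 10 genes chosen by name, out of 35498 genes to which the quantified transcripts were assigned. They are the FOS-family genes Fos, Fosb, Fosl1 and Fosl2, the JUN-family genes Jun, Junb and Jund, the zinc-finger factor genes Egr1 and Egr2, and Ier2. The estimated reads of each gene's transcripts were summed in each library and scaled to the library's total (CPM). All 10 passed the filter on low counts that left 13044 genes for testing.

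Poly(A) RNA was sequenced in 13 libraries, made from cultured lines labelled as mouse melanoma, each with between 18512887 and 22584628 estimated reads. The study switches on soluble adenylyl cyclase (sAC, the product of Adcy10, an enzyme that makes cyclic AMP) with doxycycline in chosen compartments of the cell. The NLS libraries come from cell lines numbered 6, 7 and 16, in which sAC is directed to the nucleus. Each NLS line gave 1 library labelled t0 (no doxycycline), 1 labelled t6 (doxycycline for 6 h) and 1 labelled t48 (doxycycline for 48 h). The LacZ libraries come from lines 10 and 12, each with 1 library labelled t0 and 1 labelled t48, and they serve as the control construct. No LacZ library labelled t6 was analysed here. The same line number recurs at each time, so libraries of a line are repeated samples of that line, and n below counts libraries. No line carried both constructs, so construct and cell line cannot be told apart.

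The labels have limits that touch every comparison. Adcy10 was at 365.6, 371.2 and 339.2 CPM in line 6 and at 200.4, 181.2 and 199.1 CPM in line 7, in the libraries labelled t0, t6 and t48 in turn. In line 16 Adcy10 was at 0.6707, 1.194 and 1.221 CPM, and in the LacZ libraries it lay between 0 and 0.1667 CPM. The Adcy10 mRNA therefore did not follow the time labels in lines 6 and 7 and was near the floor in line 16, and the species and extent of the sAC sequence were not given in the sources used here. The 2 LacZ libraries labelled t48 carry a nuclear compartment label and were grouped by their titles. Of the pigment-lineage markers, Mitf lay between 2.761 and 5.372 CPM, Tyr reached at most 0.9331 CPM, Sox10 at most 0.05117 CPM, Mlana at most 0.04994 CPM, and Tyrp1 was at 0 in all 13 libraries, so the defining markers of pigment cells were near 0. The summed level of 7 fibroblast markers ranged from 7128 to 17070 CPM, of which collagen genes made up most. Col1a1 lay between 2555 and 6924 CPM, while Pdgfra lay between 12.49 and 256.4 CPM, Dcn between 3.133 and 18.48 CPM and Thy1 at 0 to 0.09415 CPM. The 6 leukocyte markers together reached at most 14.61 CPM. Below, t0, t6 and t48 are names of labels.

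AP-1 is a dimer of basic leucine-zipper proteins. JUN proteins pair with each other or with FOS proteins, whereas FOS proteins need a JUN partner to bind DNA. Fos, Fosb, Junb, Egr1, Egr2 and Ier2 are classical immediate early genes: growth factors, MAP kinase signalling and cyclic AMP switch them on within minutes without new protein synthesis, through serum response factor bound at CArG boxes and CREB bound at cyclic AMP response elements (CREs), and their mRNAs decay quickly. Fosl1 (FRA-1) and Fosl2 (FRA-2) are sustained longer, and Fosl1 is a known AP-1 component of invasive and dedifferentiated melanoma cells with active MAP kinase signalling.

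The promoters of Fos, Fosb, Junb and Egr2 are printed because they belong to genes whose mRNA passed a test below and because they hold motifs of the factors just named. RefSeq's promoter table (GRCm38.p6) held 7 of the 10 genes, which were Fos, Fosb, Fosl2, Jun, Junb, Jund and Egr2. Both strands were searched for the full CRE (TGACGTCA), its 5-letter core (TGACG, part of the full CRE), the AP-1 site (TGANTCA), an EGR site (GCGNGGGCG), the CArG box and TATAAA, in the 250 bases before each start. Each sequence is the 200 bases before the start, read 5′ to 3′ on the gene's strand, with matched letters in capitals. The Fos sequence is chr12:85473690-85473889 on the plus strand, Fosb is chr7:19310046-19310245 on the minus strand, Junb is chr8:84978749-84978948 on the minus strand, and Egr2 is chr10:67537669-67537868 on the plus strand, before the start of transcript Egr2-201.
Fos: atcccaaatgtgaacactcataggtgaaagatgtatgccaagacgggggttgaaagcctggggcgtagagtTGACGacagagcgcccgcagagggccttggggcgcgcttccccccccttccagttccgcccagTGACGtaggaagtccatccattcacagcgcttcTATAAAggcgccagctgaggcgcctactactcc
Fosb: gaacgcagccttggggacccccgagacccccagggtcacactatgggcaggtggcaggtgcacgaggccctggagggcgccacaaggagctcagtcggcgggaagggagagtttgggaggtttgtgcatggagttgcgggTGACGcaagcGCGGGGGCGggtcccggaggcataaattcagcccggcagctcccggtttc
Junb: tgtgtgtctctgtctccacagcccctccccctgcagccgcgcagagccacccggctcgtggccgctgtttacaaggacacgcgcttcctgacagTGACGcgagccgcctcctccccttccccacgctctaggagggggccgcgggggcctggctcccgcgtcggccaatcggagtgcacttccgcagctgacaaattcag
Egr2: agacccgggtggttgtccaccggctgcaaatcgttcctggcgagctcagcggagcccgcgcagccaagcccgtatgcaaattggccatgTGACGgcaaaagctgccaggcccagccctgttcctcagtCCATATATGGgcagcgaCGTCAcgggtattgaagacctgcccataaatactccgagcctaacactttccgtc
The Fos sequence held the CRE core 129 and 66 bases before the start and TATAAA 33 bases before it. Fosb held a CRE core 60 bases and an EGR site 50 bases before its start, and Junb held a CRE core 106 bases before its start. The Egr2 sequence held CRE cores 111 and 55 bases before the start, with a CArG box 72 bases before it. Other Egr2 starts were searched as well. The window before 67535499 held none of these motifs, and that before 67537566 held only a CArG box. Those before 67537870 and 67537930 held 2 CRE cores and a CArG box each. Over 32851 RefSeq promoters of the same window, 17.8% held the CRE core, 1.55% the full CRE, 6.75% the AP-1 site, 4.7% the EGR site, 1.47% the CArG box and 12.4% TATAAA. Fosl2 held an EGR site 79 bases before its start. In Jun and Jund none of these letters were found in the window. The Jund window lies before a RefSeq start at chr8:70697739, upstream of the locus given below (from 70698949). The bases just before that locus were not searched. A match is a description of the letters only.

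Levels can be compared between genes only per length, as TPM, which scales for transcript length and library total. On that scale Fosl1 was the most abundant of the 10, with a median of 200.1 TPM over the 13 libraries. Jun (58.72 TPM), Fosl2 (57.22 TPM), Jund (50.03 TPM), Egr1 (49.68 TPM) and Junb (34.76 TPM) followed, and the ranges of these 5 overlapped. Ier2 had a median of 16.59 TPM and Egr2 of 5.163 TPM. Fosb (1.424 TPM) and Fos (1.327 TPM) were lowest, and their ranges overlapped as well. Fos and Fosb, the classical immediate early FOS members, were thus the 2 least abundant mRNAs of the 10, and the range of Fosb (up to 3.57 TPM) also overlapped that of Egr2 (down to 3.303 TPM). The plot of length-scaled levels shows Fosl1 above the other 9 genes in every library.

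**Figure D1:**
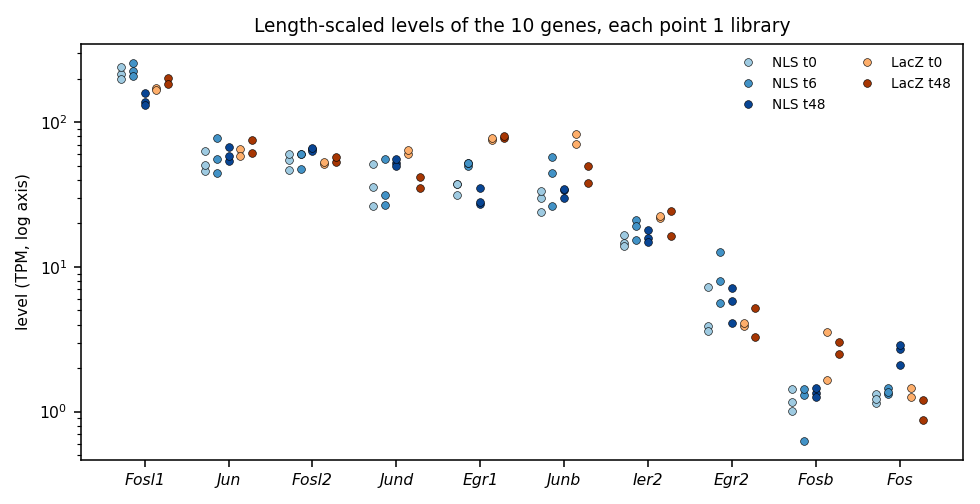
Length-scaled level (TPM, log axis) of each of the 10 genes, each point 1 library, coloured by construct and time label. Fosl1 lies between 132.2 and 257.8 TPM and Fos between 0.8704 and 2.901 TPM.

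Within the FOS family, Fosl1 made up 76.1% to 83.1% of the summed TPM in the NLS libraries labelled t0 and 65.3% to 69.9% in those labelled t48. Fosl2 made up 16.2% to 22.9% at t0 and 28.2% to 33.0% at t48 in NLS. In the LacZ libraries Fosl1 held 74.8% to 75.3% at t0 and 75.2% to 78.0% at t48. Fos and Fosb held at most 1.32% and 1.56% of the family in any library. Within the JUN family, which Jun, Junb and Jund divided more evenly, Jun held 41.1% to 50% in NLS t0, 40.6% to 43.7% in NLS t6 and 39.7% to 42.6% in NLS t48. In LacZ it held 30.2% to 31.4% at t0 and 45.1% to 45.3% at t48, and the highest Junb share of any library, 39.9%, was in a LacZ library labelled t0. These shares are ratios and do not show which member moved.

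Across the time labels, few of the 10 genes passed the test in any comparison, in a fit of group means without cell line. edgeR's quasi-likelihood test was used with Benjamini-Hochberg adjustment over all 13044 genes, and a gene is called below an adjusted p of 0.05. In NLS t6 against t0, 2 of the 10 were called, both higher, where 20.8% of all tested genes were called (11.6% higher and 9.23% lower). In NLS t48 against t0, 1 was higher and 1 lower, where 26.1% of all genes were called (14.8% higher and 11.3% lower). In NLS t48 against t6, 1 was higher and 3 lower, where 28.2% of all genes were called (14.6% higher and 13.6% lower). In LacZ t48 against t0 edgeR called 0 of the 10, where 18.5% of all genes were called (8.68% higher and 9.87% lower). None of the 10 had an unadjusted p under 0.05 there, and DESeq2 called 0 as well. The difference between the NLS and LacZ changes from t0 to t48 (the interaction) was called for 1 gene as higher and 1 as lower, where 23.3% of all genes were called (12.1% higher and 11.2% lower). The median log2 difference of the 10 was 0.19 for NLS t6 against t0, 0.19 for NLS t48 against t0 and 0.11 for LacZ t48 against t0, beside medians of 0.00, -0.01 and 0.00 over all genes. With the cell line as a replicate block, 2 of the 10 were called in NLS t6 against t0 (4527 of all genes). The block called 4 in NLS t48 against t0 (5188) and 5 in NLS t48 against t6 (5373). It called 1 in LacZ t48 against t0 (4308) and 4 in the interaction (4875). In the fit of group means the counts of called members lie close to the background shares, so the account below is of single genes.

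**Figure D2:**
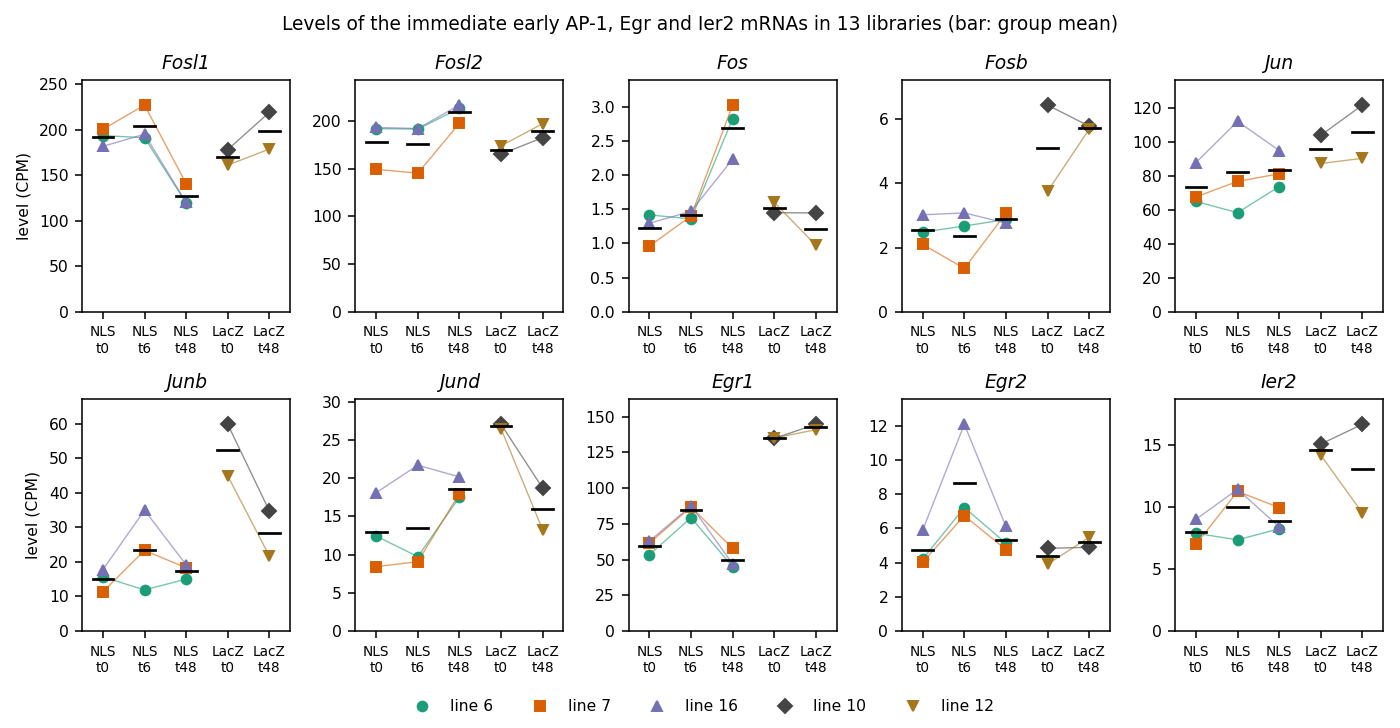
Level (CPM, linear axis from 0) of each gene in each of the 13 libraries, with points joined by cell line and a bar at each group's mean. Fos is highest and Fosl1 lowest in the 3 NLS libraries labelled t48, and Egr1 is higher in all 4 LacZ libraries than in all 9 NLS libraries.

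Fosl1 (ENSMUSG00000024912, chr19:5447547-5455946 on the plus strand, GRCm38) encodes FRA-1. Its level was 193.7, 200.7 and 181.9 CPM in NLS t0 and 191.4, 227.3 and 195.3 CPM in NLS t6, for lines 6, 7 and 16 in turn. In NLS t48 it was 119.6, 140.9 and 120.2 CPM in the same lines. The t48 libraries were the lowest 3 of all 13, and they overlapped with no other group. In LacZ, lines 10 and 12 were at 178.3 and 161.3 CPM at t0 and at 219.3 and 178.9 CPM at t48, higher at t48 in both lines. Fosl1 fell by 0.60 on the log2 scale (SE 0.09, adjusted p = 0.000419) from NLS t0 to t48, which is 0.661 times the t0 level, and by 0.69 (adjusted p = 0.000122) from t6 to t48. In LacZ the change from t0 to t48 was 0.23 (SE 0.11, adjusted p = 0.183). With the cell line as a replicate block the LacZ change was 0.22 and was called higher (adjusted p = 0.00506). The interaction was -0.83 (SE 0.15, adjusted p = 0.00142). From t0 to t6 the NLS change was 0.09 (SE 0.09, adjusted p = 0.541). Without line 16, where Adcy10 was near 0, the NLS change from t0 to t48 was -0.60 (adjusted p = 0.00788) and the interaction -0.83 (adjusted p = 0.00883). At t48 Fosl1 was 0.638 times as high in NLS as in LacZ (adjusted p = 0.000183), and at t0 the log2 difference was 0.18 (adjusted p = 0.186). Transcript Fosl1-201 carried 94.7% to 98.8% of its TPM in every library.

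Fosl2 (ENSMUSG00000029135, chr5:32135801-32157842 on the plus strand) encodes FRA-2, the other long-lived FOS protein. In NLS t0 it was at 192.2, 149.5 and 193.4 CPM, and in NLS t6 at 191.7, 145.4 and 192.3 CPM. In NLS t48 it was at 213.4, 197.7 and 216.9 CPM. All 3 lines were higher at t48 than at t0, and the groups did not overlap, but line 7 stood below lines 6 and 16 at every label. The change from t0 to t6 was -0.01 on the log2 scale (SE 0.11, adjusted p = 0.946), and from t0 to t48 it was 0.23 (SE 0.11, adjusted p = 0.161), and with the cell line as a replicate block it was 0.24 and was called (adjusted p = 0.00113). From t6 to t48 it was 0.25 (adjusted p = 0.131), and 0.26 with the block (adjusted p = 0.000585). In LacZ it was at 165.3 and 174.1 CPM at t0 and at 182.7 and 197.3 CPM at t48, a change of 0.16 (adjusted p = 0.464), and the interaction was 0.07 (SE 0.18, adjusted p = 0.83). The NLS to LacZ difference was 0.07 at t0 (adjusted p = 0.686) and 0.14 at t48 (adjusted p = 0.403), and without line 7 both were called, at 0.18 (adjusted p = 0.018 and 0.019). The coding transcript Fosl2-201 carried 72.7% to 86.2% of the TPM and the retained-intron transcript Fosl2-203 carried 13.5% to 27.1%.

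Fos (ENSMUSG00000021250, chr12:85473890-85477273 on the plus strand) is the archetypal immediate early gene, whose promoter with 2 CRE cores is printed above. It was at 1.416, 0.9605 and 1.294 CPM in NLS t0 and at 1.358, 1.4 and 1.469 CPM in NLS t6. In NLS t48 it was at 2.825, 3.022 and 2.230 CPM. Each t48 library lay above all other 10 libraries, although the level stayed low and rested on 42 to 68 estimated reads in NLS t48 and 19 to 32 in the other libraries. LacZ was at 1.448 and 1.598 CPM at t0 and at 1.445 and 0.9723 CPM at t48. From NLS t0 to t48 Fos rose 2.2-fold (log2 1.14, SE 0.23, adjusted p = 0.0026), and from t6 to t48 it rose 1.91-fold (adjusted p = 0.00747). From t0 to t6 the change was 0.20 (SE 0.24, adjusted p = 0.605). The t6 to t48 call was lost without line 6 (adjusted p = 0.0921) and without line 7 (adjusted p = 0.0539). In LacZ the change from t0 to t48 was -0.34 (SE 0.30, adjusted p = 0.478). The interaction was 1.48 (SE 0.38, adjusted p = 0.0127), and it missed the threshold without line 12 (1.13, adjusted p = 0.147), line 6 (1.56, adjusted p = 0.0519) or line 7 (1.24, adjusted p = 0.0537), and without the LacZ t48 library of line 12 (1.2, adjusted p = 0.0642). At t48 Fos was 2.23 times as high in NLS as in LacZ (adjusted p = 0.00297; without line 12 it was 0.0593), and at t0 the log2 difference was -0.32 (adjusted p = 0.365). Without line 16 the NLS change from t0 to t48 was 1.29 (adjusted p = 0.0145). Transcript Fos-201 carried all of its TPM in 11 libraries, 88.1% in NLS t6 line 6 and 68.4% in NLS t0 line 7, where the shorter Fos-204 took the rest.

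Fosb (ENSMUSG00000003545, chr7:19302696-19310051 on the minus strand) was at 2.478, 2.096 and 3.018 CPM in NLS t0, at 2.668, 1.348 and 3.076 CPM in NLS t6, and at 2.872, 3.066 and 2.761 CPM in NLS t48. LacZ was at 6.434 and 3.746 CPM at t0 and at 5.780 and 5.680 CPM at t48. The 4 LacZ libraries were higher than the 9 NLS libraries, with no overlap, and there was no ordering by time label. In NLS the change was -0.09 (adjusted p = 0.863) from t0 to t6 and 0.20 (adjusted p = 0.639) from t0 to t48, and in LacZ it was 0.17 (adjusted p = 0.75). Fosb was lower in NLS than in LacZ at t0 (log2 -1.01, SE 0.29, adjusted p = 0.0126) and at t48 (-0.98, SE 0.29, adjusted p = 0.0128). The t0 call was lost without line 10 (-0.55, adjusted p = 0.278), its t0 library (-0.57, adjusted p = 0.235) or line 6 (-0.98, adjusted p = 0.0721). The t48 call was lost without line 6, line 10 or either LacZ t48 library, with adjusted p between 0.0529 and 0.0713. The level rested on 26 to 120 estimated reads, and the split among Fosb transcripts was unstable: Fosb-201 carried between 0% and 95.9% of the TPM.

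Next, the constructs were compared at the same time label. In NLS t0 against LacZ t0, 4 of the 10 were called, all lower in NLS, where 43.5% of all genes were called (21.1% higher and 22.4% lower). In NLS t48 against LacZ t48, 1 was higher and 3 lower, where 45.1% of all genes were called (23% higher and 22.2% lower). Taken in both directions together, these shares of called members are near the background. By direction they are less so at t0, where all called members were lower. The median log2 difference of the 10 was -0.63 at t0 and -0.45 at t48, beside 0.00 and 0.01 over all genes. Both comparisons are also comparisons of lines 6, 7 and 16 with lines 10 and 12.

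**Figure D3:**
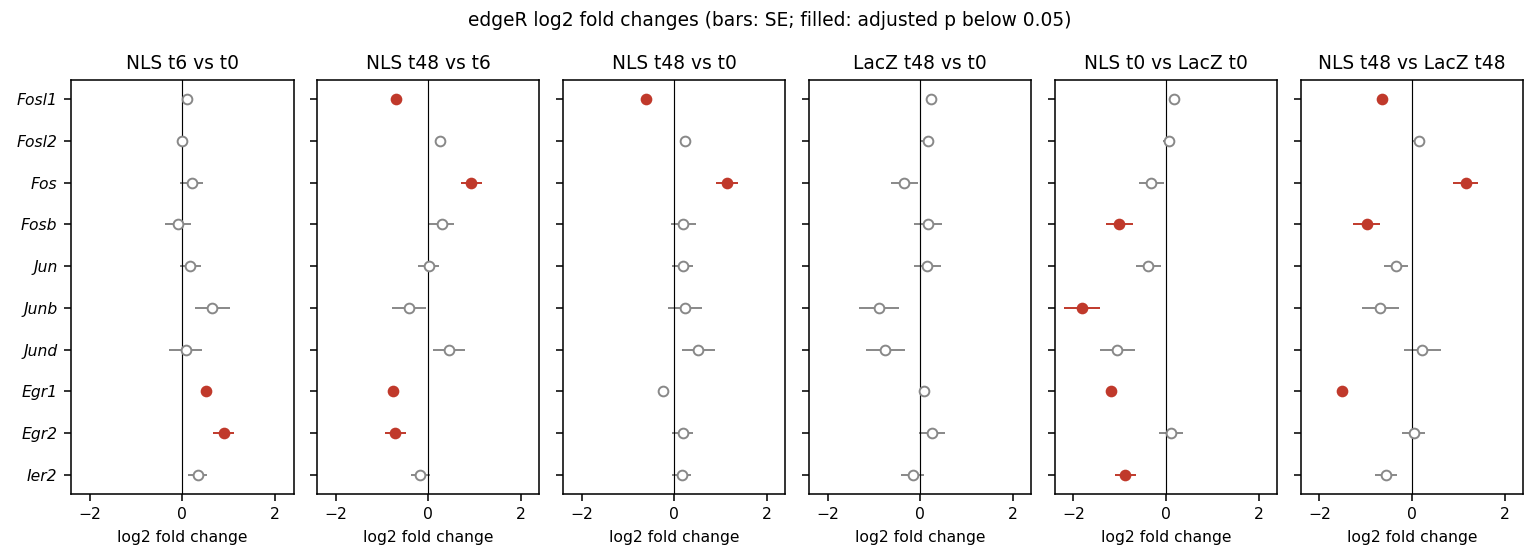
Log2 fold change of each gene in 6 comparisons (horizontal axis), with bars for the SE from edgeR and filled points for an adjusted p below 0.05. In LacZ t48 against t0 no point is filled, and Egr1 has the lowest adjusted p of the 10 genes in both comparisons of constructs.

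Junb (ENSMUSG00000052837, chr8:84974484-84978718 on the minus strand) encodes an immediate early JUN protein. It was at 15.67, 11.35 and 17.77 CPM in NLS t0 and at 11.89, 23.33 and 34.99 CPM in NLS t6. In NLS t48 it was at 15.02, 18.31 and 19.17 CPM. The t6 libraries spread from below the lowest t48 library to above the highest, so the change from t0 to t6 was 0.65 (SE 0.37, adjusted p = 0.257), and it was called (0.97, adjusted p = 0.035) without the t6 library of line 6. LacZ was at 59.89 and 44.95 CPM at t0 and at 34.79 and 21.70 CPM at t48, lower at t48 in both lines (-0.89, SE 0.43, adjusted p = 0.187). Junb was 0.285 times as high in NLS t0 as in LacZ t0 (log2 -1.81, SE 0.39, adjusted p = 0.00475), a call lost without line 7 (-1.65, adjusted p = 0.057). At t48 the difference was -0.69 (SE 0.40, adjusted p = 0.194).

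Jund (ENSMUSG00000071076, chr8:70698949-70700616 on the plus strand) encodes the JUN protein that is usually expressed steadily. It was at 12.43, 8.426 and 18.11 CPM in NLS t0, at 9.738, 9.072 and 21.72 CPM in NLS t6, and at 17.51, 18 and 20.18 CPM in NLS t48. Line 16 was high at every label, while lines 6 and 7 were high only among the t48 libraries. The change was 0.07 (SE 0.36, adjusted p = 0.924) from t0 to t6 and 0.52 (SE 0.35, adjusted p = 0.327) from t0 to t48. Without line 16 the change from t0 to t48 was 0.76 and was called (adjusted p = 0.0205), and t48 against t6 was then 0.92 (adjusted p = 0.0079). LacZ was at 27.08 and 26.52 CPM at t0 and at 18.73 and 13.25 CPM at t48, lower in both lines (-0.75, SE 0.43, adjusted p = 0.269), and this was called when only the LacZ libraries were fitted (adjusted p = 0.01). The interaction was 1.26 (SE 0.56, adjusted p = 0.133), and it was called with the replicate block (1.34, adjusted p = 0.0391) and without line 16 (1.51, adjusted p = 0.00343). At t0 the NLS to LacZ difference was -1.05 (SE 0.38, adjusted p = 0.0515), and -1.35 (adjusted p = 0.000259) without line 16.

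Jun (ENSMUSG00000052684, chr4:95049034-95052222 on the minus strand) encodes c-Jun, the main transactivating JUN protein. It was at 64.96, 67.63 and 87.87 CPM in NLS t0, at 58.33, 76.77 and 112.1 CPM in NLS t6, and at 73.72, 81.23 and 94.94 CPM in NLS t48. LacZ was at 103.9 and 87.30 CPM at t0 and at 121.7 and 90.32 CPM at t48. The time groups overlapped in both constructs, and line 16 was the highest NLS line at each label. The log2 change from NLS t0 to t6 was 0.17 (SE 0.23, adjusted p = 0.678). From t0 to t48 it was 0.18 in NLS (SE 0.23, adjusted p = 0.627) and 0.15 in LacZ (SE 0.29, adjusted p = 0.773), with an interaction of 0.03 (SE 0.37). The NLS to LacZ difference was -0.38 at t0 (SE 0.26, adjusted p = 0.273; called without line 16, at -0.51 with adjusted p = 0.0411) and -0.35 at t48 (SE 0.26, adjusted p = 0.311).

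Ier2 (ENSMUSG00000053560, chr8:84661331-84662852 on the minus strand) encodes a small nuclear immediate early protein. It was at 7.877, 6.985 and 9.007 CPM in NLS t0, at 7.350, 11.25 and 11.43 CPM in NLS t6, and at 8.238, 9.953 and 8.390 CPM in NLS t48. LacZ was at 15.07 and 14.18 CPM at t0 and at 16.67 and 9.518 CPM at t48. At t0 all LacZ libraries lay above all NLS libraries, whereas at t48 LacZ line 12 was within the NLS range. Ier2 was 0.544 times as high in NLS t0 as in LacZ t0 (log2 -0.88, SE 0.23, adjusted p = 0.00732; without the LacZ t0 library of line 10 it was 0.052). At t48 the difference was -0.56 (SE 0.23, adjusted p = 0.063), and without line 12 it was -0.91 and was called (adjusted p = 0.0092). In NLS the changes were 0.33 (adjusted p = 0.299) from t0 to t6 and 0.16 (adjusted p = 0.63) from t0 to t48.

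Junb, Jund and Ier2 have GC-rich transcripts, at 62.6%, 67.1% and 60.9% GC. This put them at percentiles 98.9, 99.9 and 97.4 of the tested genes. Fosl1, at 58.6% GC and percentile 91.8, was also in the tenth richest in GC. The tenth of tested genes richest in GC deviated together by library: their median log2 deviation from the mean over libraries was -0.187 in NLS t0 line 7 and -0.154 in NLS t6 line 6, and 0.229 in LacZ t0 line 10. The same libraries were at or near the ends of the range for Junb and Jund. With a GC offset in the fit, an alternative chosen after the data were seen, the NLS t0 to LacZ t0 differences were -1.51 for Junb (adjusted p = 0.00284), -0.58 for Ier2 (adjusted p = 0.0178) and -0.76 for Jund (adjusted p = 0.0663). Junb and Ier2 kept their calls with the smaller sizes, and the Ier2 difference at t48 (-0.50, adjusted p = 0.0351) was then called. The Fosl1 change from NLS t0 to t48 was -0.65 (adjusted p = 0.00121) with this offset. For Jund the offset gave 0.42 from NLS t0 to t48 (adjusted p = 0.297). The Jund interaction was then 1.02 and was not called (adjusted p = 0.112).

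**Figure D4:**
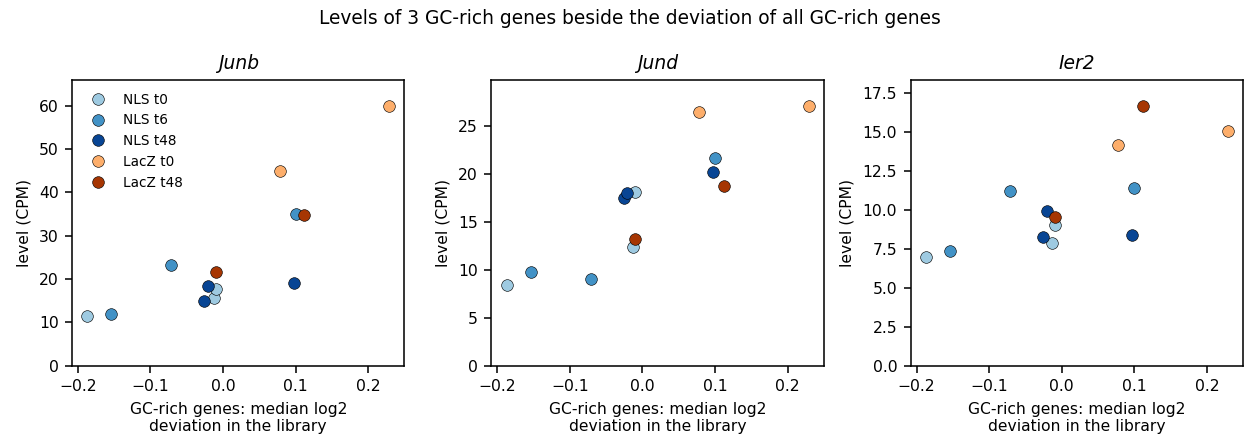
Level (CPM) of Junb, Jund and Ier2 in each library against the median log2 deviation of the tenth of tested genes richest in GC in that library, coloured by group. The LacZ t0 library of line 10 is at 0.229 on the horizontal axis and has the highest Junb and Jund levels.

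Egr1 (ENSMUSG00000038418, chr18:34859823-34864984 on the plus strand) encodes a zinc-finger activator that is induced through serum response factor and MAP kinase signalling. It was at 53.32, 61.52 and 62.86 CPM in NLS t0 (59.23 ± 5.16, SD, n = 3). It was at 79.30, 86.83 and 87.61 CPM in NLS t6 (84.58 ± 4.59, SD, n = 3) and at 44.91, 57.76 and 46.94 CPM in NLS t48 (49.87 ± 6.91, SD, n = 3). The t6 libraries were above all other NLS libraries, and the t0 and t48 libraries overlapped. Egr1 rose 1.43-fold from NLS t0 to t6 (log2 0.51, SE 0.09, adjusted p = 0.00117), in 3 of 3 lines, and it fell by 0.76 from t6 to t48 (adjusted p = 3.02e-05). Both calls were kept when each library or line was left out, and without line 16 the t0 to t6 change was 0.52 (adjusted p = 0.0151). From t0 to t48 the change was -0.25 (SE 0.09, adjusted p = 0.0567), and with the replicate block it was called (adjusted p = 0.00242). No LacZ library labelled t6 was set beside the t6 rise.

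In LacZ, Egr1 was at 134.8 and 135.1 CPM at t0 and at 144.7 and 140.9 CPM at t48, and its change was 0.08 (SE 0.11, adjusted p = 0.645). The lowest LacZ library was thus well above the highest NLS library. Egr1 was 0.439 times as high in NLS as in LacZ at t0 (log2 -1.19, SE 0.10, adjusted p = 3.9e-07) and 0.35 times at t48 (-1.52, SE 0.10, adjusted p = 2.75e-08). Both calls were kept with each library or line left out. The interaction was -0.33 (SE 0.14, adjusted p = 0.103), and -0.33 with the replicate block, where it was called (adjusted p = 0.00618). Transcript Egr1-202 carried 97.6% to 100% of the TPM.

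Egr2 (ENSMUSG00000037868, chr10:67535475-67542188 on the plus strand) encodes a related zinc-finger factor. The promoter before the start of Egr2-201, with 2 CRE cores and a CArG box, is printed above. It was at 4.204, 4.017 and 5.893 CPM in NLS t0, at 7.210, 6.739 and 12.08 CPM in NLS t6, and at 5.131, 4.754 and 6.106 CPM in NLS t48. LacZ was at 4.826 and 3.896 CPM at t0 and at 4.891 and 5.475 CPM at t48. The t6 libraries were above all others, and the one of line 16 stood far above the other two. Egr2 rose 1.85-fold from NLS t0 to t6 (log2 0.89, SE 0.22, adjusted p = 0.0122) and fell by 0.71 from t6 to t48 (SE 0.22, adjusted p = 0.0272). The t6 rise was lost without the t6 library of line 16 (0.57, adjusted p = 0.0539), the t0 library of line 6 (0.80, adjusted p = 0.0578) or the whole of line 6 (0.92, adjusted p = 0.0886), and without the whole of line 16 it was 0.75 (adjusted p = 0.0185). The fall to t48 missed the threshold without the t6 library of line 16 (-0.39, adjusted p = 0.143), without the t48 library of line 6 (-0.68, adjusted p = 0.0875) or line 7 (-0.63, adjusted p = 0.0904), and without line 6 (-0.80, adjusted p = 0.0983) or line 16 (-0.49, adjusted p = 0.0603). Both calls also missed the threshold with length-scaled TPM counts (adjusted p = 0.125 for the rise and 0.194 for the fall) and in fits of only the libraries compared (0.056 and 0.05). The NLS to LacZ difference was 0.11 at t0 (SE 0.26, adjusted p = 0.768) and 0.04 at t48 (SE 0.25, adjusted p = 0.924). Transcript Egr2-201 carried 19% to 72.1% of the TPM and the 902-base Egr2-206, which starts at another site, 25.8% to 69.4%.

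Cell lines of 1 construct also differed. Line was tested over the time labels that lines share, in a fit with a term for each group and each line within a construct. Between NLS lines 7 and 6, Fosl1 (log2 0.18, adjusted p = 0.0171) and Egr1 (0.23, adjusted p = 0.0136) were higher and Fosl2 (-0.29, adjusted p = 0.00172) was lower in line 7, 3 of 10 where 11.1% of all genes were called (5.9% higher and 5.19% lower). Between lines 16 and 6, Jun was higher in line 16 (0.58, adjusted p = 0.0412), 1 of 10 where 2.26% of all genes were called (1.38% higher and 0.882% lower). Between lines 16 and 7, Fosl1 was lower (-0.20, adjusted p = 0.00504), and Fosl2 (0.30, adjusted p = 0.000505), Jun (0.39, adjusted p = 0.0369) and Egr2 (0.60, adjusted p = 0.0043) were higher in line 16, 4 of 10 where 22.6% of all genes were called (10.8% higher and 11.8% lower). The Fosl2 differences were kept with each library left out, as was the Fosl1 difference between lines 16 and 7. The other 5 differences lost their calls without 1 or more single libraries, with adjusted p up to 0.202 for Jun between lines 16 and 7 (without the t0 library of line 7), 0.145 for Jun between lines 16 and 6 (without the t0 library of line 16), 0.106 for Egr1 (without the t48 library of line 7), 0.104 for Fosl1 between lines 7 and 6 (without the t48 library of line 6) and 0.0669 for Egr2 (without the t6 library of line 16). With length-scaled TPM counts the Fosl2 difference between lines 7 and 6 also missed the threshold (adjusted p = 0.0735). Between LacZ lines 12 and 10 edgeR called 0 of the 10, where 0.123% of all genes were called (0.092% higher and 0.0307% lower). Fosl1 and Jun had an unadjusted p under 0.05 there (0.00105 and 0.0309), DESeq2 called 0, and a fit of the LacZ libraries alone called 3, which were Fosl1, Jun and Junb.

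The neighbours of these genes in the pathway were taken from lists. Of 22 other immediate early genes tested, 4 were higher and 2 lower in NLS t6 against t0. Over all genes 11.6% were higher and 9.23% lower there. Egr3, the next Egr factor, was at 13.1, 12.44 and 13.85 CPM in NLS t0 and at 26.22, 28.72 and 29.52 CPM in NLS t6, and it rose 1.1 on the log2 scale (SE 0.11, adjusted p = 1.85e-05). In NLS t48 it was at 8.944, 8.709 and 10.14 CPM, below t0 in every line (-0.50, adjusted p = 0.00706). Egr3 therefore had the order of labels seen for Egr1, with t6 highest. Klf10 was also higher at t6 (0.21), and Klf4 (-0.18) and the MAP kinase phosphatase gene Dusp1 (-0.51, adjusted p = 0.049) were lower. In NLS t48 against t0, 6 were higher and 4 lower, where 14.8% of all genes were higher and 11.3% lower. Among the 22, Ier5 (0.73) and the antiproliferative gene Btg2 (1.02) were higher and Klf4 (-0.58) was lower. In LacZ t48 against t0, 1 of 22 was called, Dusp1 (0.77, adjusted p = 0.0279), where 18.5% of all genes were called. The interaction was called for Btg2 (0.96, adjusted p = 0.0103), Dusp2 (1.23, adjusted p = 0.0423) and Klf4 (-0.65, adjusted p = 0.000118). It was called for 23.3% of all genes. The median of the 22 was 0.11 for NLS t6 against t0 and 0.19 for NLS t48 against t0.

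Of 11 factors that drive immediate early transcription, 2 were higher in NLS t6 against t0, Mef2d (0.26) and Mef2a (0.23), and 1 was higher (Elk1, 0.24) and 1 lower (Atf1, -0.34, a relative of CREB) in NLS t48 against t0. Of 15 genes for MAP kinases and kinases of JUN or FOS, 3 were higher and 1 lower at t6, including Mapk3 (ERK1, 0.35, adjusted p = 0.000247) and Rps6ka1 (RSK1, 1.67, adjusted p = 0.000525) as higher and Map2k1 (MEK1, -0.26) as lower. Rps6ka1 stayed higher in NLS t48 than in t0 (1.52, adjusted p = 0.000691), with an interaction of 2.33 (adjusted p = 0.000648), while Mapk3 was lower at t48 than at t0 (-0.19, adjusted p = 0.0132). Of 9 AP-1 partners, Mafg was higher at t6 (0.23), and Jdp2, whose product represses AP-1, was higher at t48 (0.32, adjusted p = 0.00884). Of 6 factors that control AU-rich mRNAs such as those of Fos and Junb, 2 were higher at t6, Hnrnpd (0.21) and Zfp36 (0.44). At t48, 3 of these 6 were higher and 1 lower, including Zfp36l1 (0.77) and Zfp36l2 (-0.53). These counts stand beside 20.8% of all genes called at t6 and 26.1% at t48, and no list was tested as a set.

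Of 15 known AP-1 target genes tested, 4 were higher and 0 lower in NLS t6 against t0, and 4 were higher and 2 lower in NLS t48 against t0. In LacZ t48 against t0, 4 of the same 15 were higher and 4 lower. Over all genes 11.6% were higher and 9.23% lower in NLS t6 against t0, 14.8% and 11.3% in NLS t48 against t0, and 8.68% and 9.87% in LacZ. Mmp9, a matrix protease gene with AP-1 sites, was at 1.859, 1.703 and 1.294 CPM in NLS t0, at 8.988, 9.435 and 11.34 CPM in NLS t6, and at 3.06, 3.022 and 4.036 CPM in NLS t48. It rose 2.61 on the log2 scale to t6 (SE 0.18, adjusted p = 7.95e-07) and was 1.05 above t0 at t48 (adjusted p = 0.00136). The NLS groups did not overlap, and LacZ, at 6.917 and 7.092 CPM at t0 and at 3.613 and 2.61 CPM at t48, went down (-1.17, adjusted p = 0.00246), with an interaction of 2.22 (adjusted p = 0.000144). Ccnd1, the cyclin D1 gene, was higher at t6 (0.37, adjusted p = 0.00317) and lower at t48 (-0.28, adjusted p = 0.014) than at t0, and Hmga1 was lower at t48 (-0.80, adjusted p = 0.000391). In NLS t0 against LacZ t0, 1 of the 15 was higher and 6 were lower, including Mmp9 (-2.11, adjusted p = 1.92e-06), where 21.1% of all genes were higher and 22.4% lower. Of 10 EGR co-repressors and target genes, 2 were higher at t6, Tgfb1 (0.64, adjusted p = 0.00022) and the EGR co-repressor gene Nab2 (0.26, adjusted p = 0.0166). At t48 against t0, 3 were higher and 2 lower, with Nab2 (-0.22, adjusted p = 0.029) among the lower.

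Heat shock genes were listed as a sign of culture stress. In NLS t6 against t0, edgeR called 0 of 7, none with an unadjusted p under 0.05, where 20.8% of all genes were called. In NLS t48 against t0, 2 were higher and 2 lower, where 26.1% of all genes were called. The higher ones were Hspa1a (1.07, adjusted p = 0.0033) and Hspd1 (0.17), and the lower ones Dnajb1 (-0.30) and Hsp90aa1 (-0.25). Hspa1b changed by -0.05 (adjusted p = 0.918). In NLS t0 against LacZ t0, 6 of 7 were higher, where 21.1% of all genes were higher. Their part in the changes of the AP-1 and Egr genes was not tested. Of 6 fibroblast markers, 2 were lower in NLS t6 against t0, where 9.23% of all genes were lower. In NLS t48 against t0, 3 of them were higher, where 14.8% of all genes were higher. In NLS t48 against LacZ t48, 5 markers were higher and 1 lower, where 23% of all genes were higher and 22.2% lower. Their part was not tested. In bulk RNA, fewer cells with a transcript and less of it per cell cannot be told apart.

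Across the 13 libraries, Junb and Ier2 varied together (Pearson r = 0.93 of log2 CPM), as did Jun and Ier2 (0.78), Jun and Junb (0.77) and Egr1 and Ier2 (0.77), while Fos and Fosl1 went in opposite directions (-0.77). These values describe 13 libraries that share lines and constructs, and the Junb and Ier2 pair shares a high GC content. Among 10395 other genes, those most like Fos were Cacng7 (r = 0.931), Serpinh1 (0.912) and Brsk1 (0.898). Those most like Fosl1 were Tk1 (0.938), Fars2 (0.926) and Sfxn1 (0.925). Junb was most like Zdhhc8 (0.979), Zc3h18 (0.973) and Cdkn2a (0.961), and Egr1 was most like Parvb (0.988), Itpr3 (0.984) and Hmga2 (0.983).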

How the data were processed

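Transcript abundances were deposited as 1 Salmon 1.2.0 table per library, with GRCm38 as the build, per the submitters' processing notes; the transcript set and options were not given in the sources used here. The deposited tables give estimated counts and TPM values per transcript from paired-end stranded libraries, per the labels' protocols. Transcripts were matched by identifier to GENCODE M21 (115977 of 116546, 99.5%), and the estimated counts were summed to 35498 genes and rounded. Between 0.1207% and 0.1649% of estimated reads belonged to unmatched transcripts. TPM was summed in the same way and used only to compare genes.

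Tests used edgeR 4.0.16 (R 4.3.3) with TMM scaling, its expression filter, robust quasi-likelihood fits of all 13 libraries with 5 group means, and Benjamini-Hochberg adjustment over 13044 genes, called below 0.05. Line comparisons added cell line within construct. The code was tested on simulated data. Log2 CPM used a prior count of 0.5. DESeq2 1.42.0, other scaling, no filter, length-scaled TPM counts, left-out libraries and lines, and a replicate block were alternatives. Figures used matplotlib 3.10.9.

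Cell line numbers in the labels name the same line at each time, so they pair libraries. Deviations from group means correlated between -0.00314 and 0.221 over 9 same-line NLS pairs and between -0.195 and 0.046 over 18 different-line NLS pairs. Deviations cancel within each group, so the same-line and different-line ranges are tied to each other. In LacZ, same-line pairs correlated at -0.0289 and different-line pairs at 0.0289. Deviations from a mean of 2 libraries mirror each other, so the LacZ values cannot check the pairing. Libraries of a group differed beyond counting noise, with a chi-square per degree of freedom of at least 6.937. Nothing says that libraries came from separate cultures, so the spread behind each p-value is that among these libraries. In the fit of group means, each library of a group is from a different line, so that spread includes differences between lines. The rest of it, and the spread in fits with a term for line, may be technical. The genes and lists were chosen with earlier results of these data known. The rule allowed all 10 genes to be named in each comparison, of which every called value and not every uncalled one is printed, and from each list up to 2 genes higher and 2 lower with the smallest p. For likeness, the 3 genes with the highest r were taken.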

Additional observations from a re-analysis of the deposited data

Results flagged for a closer look

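The change from t0 to t48 differed between the constructs, by the edgeR interaction test, for 2 of the 10 genes. The same test called 23.3% of all genes. With the cell line as a replicate block, 4 of the 10 and 4875 of all genes were called. For Fos the NLS change minus the LacZ change was 1.48 on the log2 scale (adjusted p = 0.0127), with Fos higher at t48 in 3 of 3 NLS lines and in 0 of 2 LacZ lines. For Fosl1 it was -0.83 (adjusted p = 0.00142), with Fosl1 lower at t48 in 3 of 3 NLS lines and higher in 2 of 2 LacZ lines. The Fos level rested on 19 to 68 estimated reads. Its interaction call was lost without line 6 (adjusted p = 0.0519), line 7 (adjusted p = 0.0537) or line 12. Without line 12 the interaction was 1.13, with a single library left in each LacZ group. No group held enough libraries for a test of single outlying libraries.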

How the results depend on the processing

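The 26 calls made for the 10 genes over 11 comparisons gave 406 values under other settings or with a library or line left out, all in the same direction, and 355 of the 406 were past the threshold. Where a call or a count changed and no reason is named, the cause was not tested. Low depth limits Fos and Fosb, and no value rests on more than 3 libraries a group. With the cell line as a replicate block, 4527 genes were called in NLS t6 against t0 (2716 without it), 5188 in NLS t48 against t0 (3402), 4308 in LacZ t48 against t0 (2419) and 4875 in the interaction (3045). Of the 10 genes, the block called 4 in NLS t48 against t0, 1 in LacZ and 4 in the interaction, and it changed no call in NLS t6 against t0. With the GC offset and the replicate block together the counts were 4883, 5563, 4559 and 5183 for the same comparisons and 5610 for NLS t48 against t6 (3673), and 4, 1 and 4 of the 10 genes were called as with the block alone. Among line comparisons, DESeq2 called 825 genes for lines 7 and 6 (1446 in edgeR), 1681 for lines 16 and 7 (2950) and 46 for LacZ lines (16), and 2 of the 10 for lines 16 and 6. With no filter on low counts 83 genes were called for the LacZ lines. Length-scaled TPM counts called 421, 72, 1023 and 1 genes for lines 7 and 6, 16 and 6, 16 and 7, and 12 and 10, and 1 of the 10 genes in NLS t6 against t0 and 0 for lines 7 and 6. Fits of only the libraries compared called 1 of the 10 in NLS t6 against t0, 1 in LacZ and 4 in the interaction, and 303 genes, 3 of them among the 10, for the LacZ lines. The GC offset called 1900 genes for lines 16 and 7, 28 for the LacZ lines and 0 of the 10 for lines 16 and 6.

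With each library or line left out, the counts of all genes ranged from 994 to 2817 in NLS t6 against t0, 1592 to 3076 in NLS t48 against t0, 2034 to 3333 in NLS t48 against t6, 522 to 1290 in LacZ and 1272 to 3176 in the interaction. For lines they ranged from 596 to 1279 (7 and 6), 113 to 583 (16 and 6), 1503 to 2474 (16 and 7) and 7 to 12 (12 and 10). Of the 10 genes, 1 to 3 were called in NLS t6 against t0 and in the interaction, 2 to 4 in NLS t48 against t6, 2 to 6 in NLS t0 against LacZ t0, 1 to 3 for lines 7 and 6, and 0 to 2 for lines 16 and 6.

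Signs changed only among values not called, in 31 of them. In log2 units, length-scaled TPM counts gave 0.01 for Fosl2 and -0.04 for Jund in NLS t6 against t0, 0.00 for Fosb, -0.07 for Jun and 0.01 for Egr2 in the interaction, -0.06 for Ier2 between lines 16 and 7, and 0.02 for Egr1 and 0.35 for Egr2 between the LacZ lines. The GC offset gave 0.01 for Fosl2 at t6, -0.13 for Ier2 between lines 16 and 7 and 0.00 for Egr1 between the LacZ lines, and with the block 0.00 for Fosl2 and -0.01 for Jund at t6. Leaving out libraries or lines gave, for NLS t6 against t0, Fosb -0.32 to 0.19, Fosl2 -0.13 to 0.11, Jun -0.12 to 0.36 and Jund -0.46 to 0.37. It gave Ier2 -0.02 to 0.29 for NLS t48 against t0, and Fosb -0.03 to 0.56 and Jun -0.18 to 0.30 for NLS t48 against t6. For LacZ t48 against t0 it gave Fos -0.72 to 0.01, Fosb -0.17 to 0.61, Jun -0.08 to 0.35 and Ier2 -0.61 to 0.20. For the interaction it gave Egr2 -0.32 to 0.15, Fosb -0.41 to 0.37, Fosl2 -0.04 to 0.13, Ier2 -0.04 to 0.77 and Jun -0.18 to 0.25. For NLS against LacZ it gave Egr2 -0.08 to 0.28 at t0, and Egr2 -0.06 to 0.12 and Jund -0.02 to 0.49 at t48. For lines 7 and 6 it gave Fos -0.31 to 0.08 and Junb -0.12 to 0.57. For lines 16 and 6 it gave Fos -0.22 to 0.06, Fosb -0.01 to 0.36, Fosl1 -0.05 to 0.04 and Fosl2 -0.03 to 0.05. For lines 16 and 7 it gave Egr1 -0.13 to 0.00, Fos -0.21 to 0.18 and Ier2 -0.12 to 0.18. For the LacZ lines it gave Egr1 -0.04 to 0.01, Egr2 -0.30 to 0.16 and Fos -0.57 to 0.15.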
